A study of Mus musculus with 15 samples.

Results

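The transcripts described here are those of 56 mouse genes that sense, signal or repair DNA damage, measured while transcription was blocked in C2C12 myoblasts. A gene was taken when a probe set of the array named it as its single gene symbol, and a gene with several such probe sets was represented by the one with the highest mean at 0 min. By that rule 55 of the 56 genes were matched, by 57 of the 25175 probe sets (Bard1 has several), and Xrcc2 was not matched and is not analysed here. In all, 19452 genes had a probe set of their own.

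C2C12 is an established mouse myoblast line (ATCC CRL-1772), and the LKO-1 derivative used here is a stable line that carries an empty lentivirus vector and grows under puromycin. Every group was of this line in proliferation, kept below confluency so that it did not differentiate, and every group received actinomycin D, a drug that binds DNA and stops transcription, at 8 µg/mL for 30 min. RNA was taken right after that incubation (0 min) and 10, 50, 110 and 230 min later, in 3 replicate time courses, which gives 15 arrays (Affymetrix Mouse Gene 1.0 ST) and 5 groups of 3. The design asks how quickly each mRNA is lost once no more of it is made. The 0 min arrays are the start of the series, so each member was compared with its own level at 0 min and with the other transcripts on the same array.

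DNA repair is divided among pathways that each read a different lesion. Breaks of both strands are sensed by the Mre11-Rad50-Nbn complex and the kinases Atm and Atr, and are then mended by homologous recombination or by end joining, while the Fanconi anaemia proteins act on strands that are cross-linked to each other. Damaged or mispaired bases are handled by base excision, nucleotide excision and mismatch repair, and lesions that remain are bypassed by tolerant polymerases. Proliferating cells draw on these pathways at each round of replication.

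Each deposited value is a linear ratio to its array's 5th percentile, so that a ratio of 1 is about the floor of the array. The median over the 12544 probe sets called expressed (above the array median at 0 min in at least 2 of 3 replicates) lay between 7.83 and 9.84 on the 0 min arrays and between 2.89 and 4.65 on the 230 min arrays. Replicate 1 had the lowest such median of the 110 min group (3.91) and replicate 2 that of the 230 min group (2.89), and calls lost without this low pair of arrays are given beside the genes. The cells carried myoblast markers, with 5 of 5 matched markers expressed (Myod1 27.3 ± 2.74 and Des 42.3 ± 7.73 at 0 min, SD, n = 3), while 0 of 3 endothelial and blood markers were expressed. Of the muscle fibre markers 4 of 7 were expressed, Acta1 unevenly so (12.02 ± 8.49), as were 3 of 7 fibroblast and adipocyte markers, with Pparg at 12.1 ± 1.45. The experiment was repeated in triplicate, but the sources do not state whether the replicates came from separate cultures, so the p-values measure the spread between these arrays, and their number limits the precision.

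The repair transcripts declined together. On the deposited scale 55 of 55 members fell over the time course and 0 rose (limma, adjusted p between 3.8e-07 and 0.0042), beside 96.3 percent of expressed probe sets (75.8 percent of all probe sets) that fell and 0.0159 percent (0.302 percent of all) that rose. After division of the arrays by their own medians 34 members fell and 0 rose, beside 42.7 and 2.83 percent of expressed probe sets. After division by the 75th percentiles 11 fell and 18 rose, beside 15.2 and 48.6 percent. These scalings moved the median slope of expressed probe sets to -0.07 and 0.07 log2 per hr, against -0.25 on the deposited scale, so the size of the general decline is set by the scaling and each member is described below relative to the other transcripts. The median slope of the members was -0.30 log2 per hr. It differed by -0.05 from that of expressed probe sets, a difference that scaling of whole arrays cannot move. In pace it was -0.02 under quantile normalization, and it was -0.03 with log2(ratio + 1) and -0.03 without replicate 1.

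The decline was small at first and then large, for the members as for expressed probe sets. The median change of the members from 0 min, on the log2 scale, was -0.13, -0.09 and -0.08 at 10 min in replicates 1, 2 and 3. Expressed probe sets then had -0.13, -0.11 and -0.07. At 50 min the members had -0.35, -0.03 and -0.04, beside -0.32, -0.045 and 0.03 for expressed probe sets. At 110 min the members had -1.23, -0.57 and -0.42, beside -1.17, -0.58 and -0.40. At 230 min the members had -1.02, -1.34 and -0.84, beside -0.82, -1.22 and -0.74 for expressed probe sets. Replicate 1 thus stood lowest at 110 min and replicate 2 at 230 min, among members and among expressed probe sets alike. In 51 of 55 members every 0 min ratio was above every 230 min ratio, which is 92.7 percent beside 84.3 percent of expressed probe sets, and the exceptions were Atm, Chek1, Mre11a and Parp1. The share of the 0 min ratio left at 230 min ran from 18.5 percent for Msh6 to 66.9 percent for Fancd2, with a median of 48.8 percent.

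To place the members against other transcripts, the median log2 ratio of the expressed probe sets was subtracted on each array, and the slope that remained is called the pace. A negative pace is a faster loss than that median and a positive pace a slower one. The subtracted median itself fell by 0.318 ± 0.057 log2 per hr (SD, n = 3 time courses), which is steeper than the slope of the median probe set, so the median expressed probe set has a pace of 0.07. By limma 11 members were called faster and 18 slower, with 26 not called. That is 20 percent of members faster, beside 15.1 percent of expressed and 7.54 percent of all probe sets, and 32.7 percent slower, beside 48.8 and 74.2 percent. The median pace of the members was 0.02. With the arrays centred instead on the median change of the expressed probe sets, a centring chosen after seeing the data, 16 members were faster and 5 slower, beside 24.7 and 22.8 percent of expressed probe sets. Under quantile normalization 16 were faster and 12 slower, beside 22.7 and 26.8 percent. Without replicate 3 the main centring gave 6 faster and 11 slower, beside 11.6 and 35.3 percent of expressed probe sets. Without the 230 min arrays it gave 7 faster and 13 slower, beside 11.2 and 28.9 percent.

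**Figure D1:**
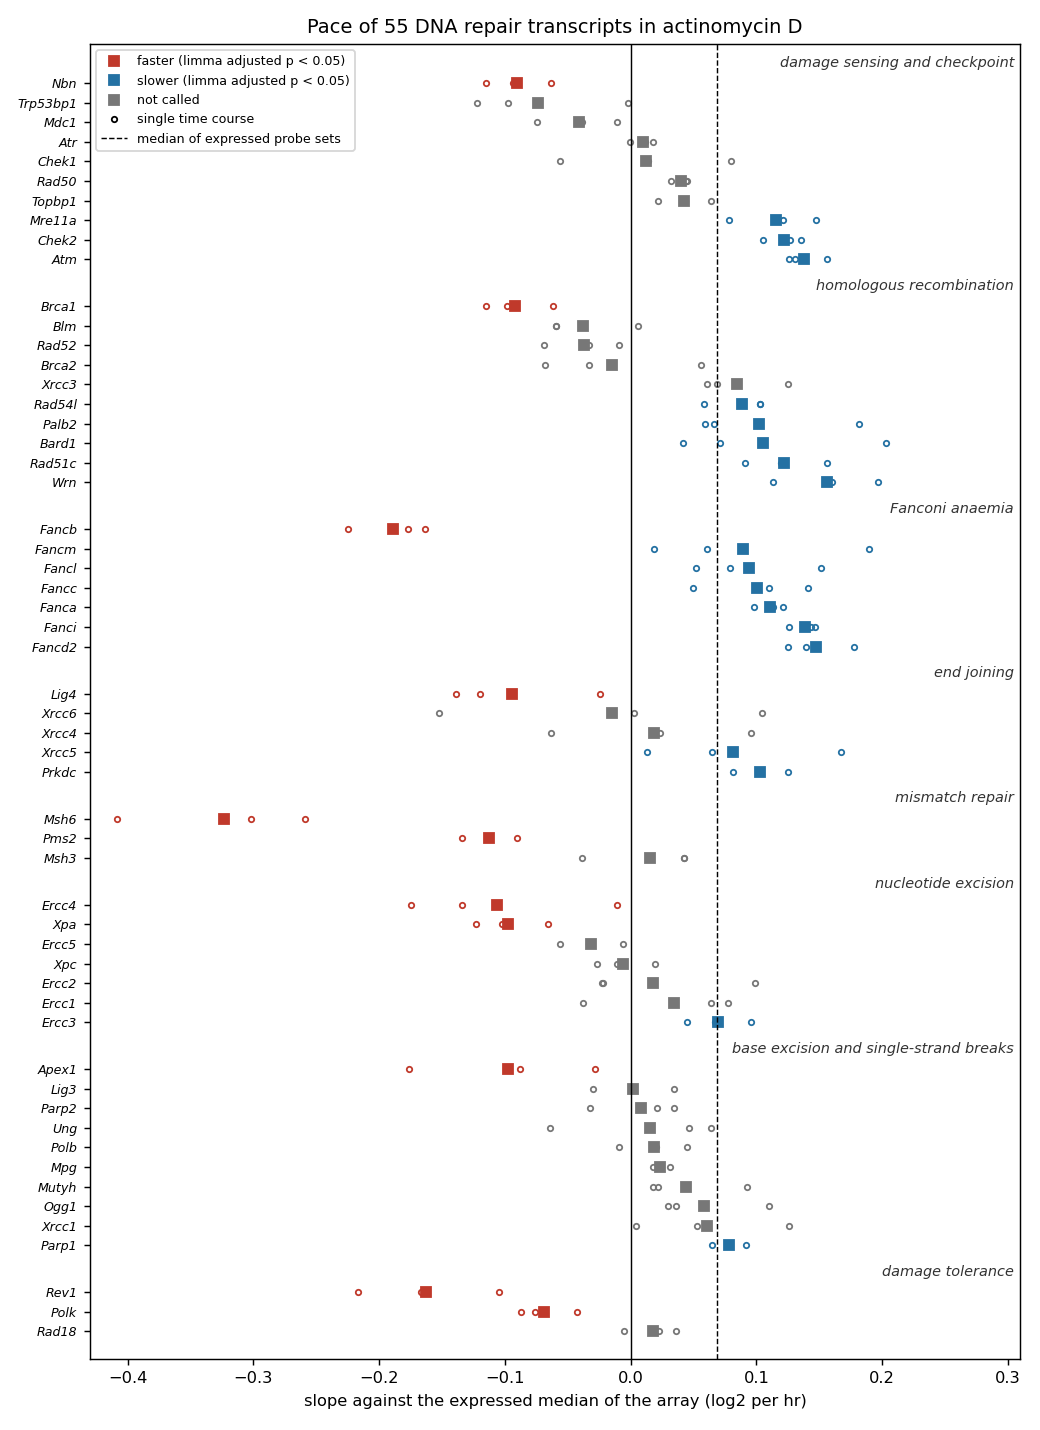
Slope of each of the 55 repair transcripts against the expressed median of the array, in log2 per hr, grouped by role. Squares are the limma estimate over 15 arrays, open circles the 3 time courses, the solid line the subtracted median and the dashed line the median pace of all expressed probe sets (0.07), and Msh6 lies farthest to the left at -0.32 and Wrn farthest to the right at 0.16. The 11 faster members were called under all 5 centrings, and 0 of the 18 slower members were called when arrays were centred on the median of all probe sets. Each alternative centring lowered the median pace of the members, which makes slower calls easier to lose than faster ones.

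The calls differed in how many settings they held under. Msh6, Fancb, Rev1, Pms2 and Brca1 were called faster under all 17 settings tried, and the 11 faster members were called under all 5 ways of centring the arrays. Atm, Wrn, Fancd2 and Fanci were slower under 16 of 17 settings and Rad51c and Chek2 under 15. Of the 18 slower members 0 were called when arrays were centred on the median of all probe sets. Each alternative centring lowered the median pace of the members, from 0.019 to between -0.118 and -0.004. Slower calls were thus easier to lose than faster ones, and the centrings cannot show which kind of call is the firmer. Without the 0 min arrays the calls of Bard1 (0.10), Ercc3 (0.07), Fancm (0.08), Lig4 (-0.08), Parp1 (0.07), Polk (-0.06) and Xrcc5 (0.05) were lost, with adjusted p from 0.053 to 0.23. Without the 230 min arrays those of Ercc3 (0.14, adjusted p = 0.051) and Parp1 (0.11, adjusted p = 0.13) were lost, besides those named below. With log2(ratio + 1) the faster calls of Ercc4 (-0.041, adjusted p = 0.19) and Lig4 (-0.045, adjusted p = 0.16) were lost. Those of Polk (-0.041, adjusted p = 0.16) and Xpa (-0.065, adjusted p = 0.055) were lost too, as were the slower calls of Ercc3, Parp1 and Xrcc5 (0.042 to 0.049, adjusted p = 0.14 to 0.15). With 1 subtracted from each ratio Apex1 (-0.043, adjusted p = 0.34) and Bard1 (0.101, adjusted p = 0.075) were not called, besides others named below. All 29 called members had the same sign of pace in each of the 3 time courses, as did 40 of the 55 members in all. The calls were made on these same time courses, so the shared sign is not separate evidence for them. Across the 55 genes the paces of replicates 1 and 2, 1 and 3, and 2 and 3 correlated with Pearson's r = 0.756, 0.875 and 0.702, a description across genes on arrays that share a platform and probe sets.

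Pace differed between probe sets of low and high ratio at 0 min, and a probe set near the floor has little room to decline. Of the 4319 probe sets with a 0 min ratio of 2 to 4 only 2229 were expressed, against 6 of the 7 members there. Over all these probe sets the median pace was 0.15, and the 7 members had 0.09. At 4 to 8 it was 0.02 for 26 members and 0.04 for all probe sets, and at 8 to 16 it was 0.002 for 15 members and 0.03 for all. At 16 and above it was 0.03 for 7 members and 0.10 for all. In each of the 4 ranges the median of the members was the lower, a difference that was not tested.

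The mismatch repair transcripts held the fastest member. Msh6, which recognises single mispaired bases, had ratios of 17.4, 8.96 and 13.5 at 0 min in replicates 1, 2 and 3, and of 13.9, 9.0 and 13.1 at 10 min. It had 8.2, 7.24 and 10.6 at 50 min, 4.88, 3.83 and 7.11 at 110 min, and 3.28, 1.77 and 2.26 at 230 min. Every time course declined at each step after 10 min, and the 0 and 230 min ratios were far apart in all 3. Its pace was -0.32 ± 0.035 log2 per hr (SE, limma adjusted p = 1.9e-06), and only 1.4 percent of expressed probe sets had a lower slope. Pms2, a subunit of the endonuclease that acts after mismatch recognition, also declined faster, with a pace of -0.11 ± 0.029 (adjusted p = 0.0017). Its ratio averaged 6.41 ± 1.55 at 0 min and 2.19 ± 0.736 at 230 min (SD, n = 3). Msh3, which takes the place of Msh6 when larger loops are recognised, had 6.63, 4.2 and 5.93 at 0 min and 3.21, 1.66 and 3.31 at 230 min, and its pace of 0.02 ± 0.029 was not called.

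Damage tolerance was the other group in which most members were faster, with 2 of 3 called, beside 15.1 percent of expressed probe sets. Rev1, a translesion polymerase that also holds other bypass polymerases together, had ratios of 10.8, 8.89 and 8.59 at 0 min, 6.68, 6.84 and 7.56 at 50 min, 2.82, 4.19 and 3.94 at 110 min, and 2.92, 2.23 and 3.03 at 230 min. The 0 and 230 min groups did not overlap. Its pace was -0.16 ± 0.032 (adjusted p = 0.00014). Polk, another bypass polymerase, had a pace of -0.07 ± 0.028 (adjusted p = 0.032), a call lost without replicate 1 (-0.07, adjusted p = 0.12), without replicate 3 (-0.06, adjusted p = 0.18) and without the 230 min arrays (-0.10, adjusted p = 0.17). Rad18, the ubiquitin ligase that marks the sliding clamp at stalled forks, had 16.5, 9.61 and 13.0 at 0 min and 8.49, 3.8 and 6.74 at 230 min. Its pace of 0.02 ± 0.028 was not called.

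**Figure D2:**
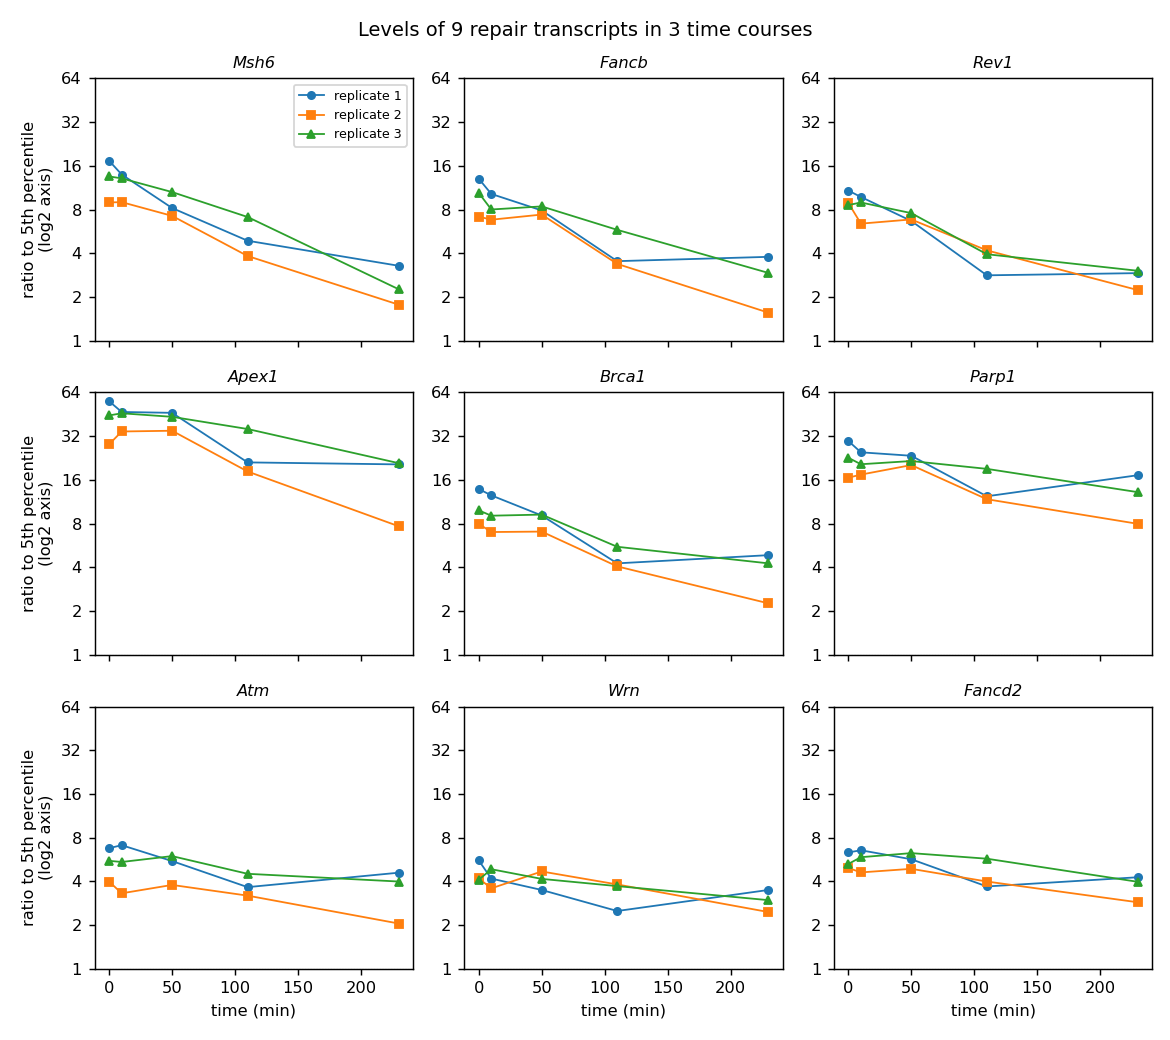
Ratio to the 5th percentile of the array (log2 axis) against minutes after the actinomycin D incubation for 9 repair transcripts, each line a replicate time course. Msh6 ended between 1.77 and 3.28 at 230 min, while the 0 and 230 min ratios of Atm and of Parp1 overlapped.

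Of the 7 Fanconi anaemia members 1 was faster and 6 were slower, beside 15.1 and 48.8 percent of expressed probe sets. In the wider list of repair genes described at the end, Fance (-0.23 ± 0.030, adjusted p = 2.9e-06) and Fancf (-0.12 ± 0.034, adjusted p = 0.0025) of the same core complex were faster and Fancg (0.18 ± 0.027, adjusted p = 9.8e-06) slower. Fancb, a subunit of the core complex that ubiquitinates Fancd2 and Fanci, had ratios of 13.1, 7.16 and 10.4 at 0 min, 7.89, 7.39 and 8.41 at 50 min, 3.53, 3.38 and 5.8 at 110 min, and 3.78, 1.56 and 2.93 at 230 min. Its groups at 0 and 230 min lay well apart, and 26.3 ± 3.91 percent of the 0 min ratio was left at the end (SD, n = 3). The pace of Fancb was -0.19 ± 0.030 (adjusted p = 1.4e-05). The other 6 members, Fanca, Fancc, Fancd2, Fanci, Fancl and Fancm, were all called slower, with paces between 0.09 and 0.15. Fancc and Fancm had 0 min ratios of 2 to 4, and all probe sets in that range had a higher median pace (0.15). With 1 subtracted from each ratio the calls of Fancc (0.001, adjusted p = 0.98), Fancm (0.01, adjusted p = 0.8) and Fancl (0.08, adjusted p = 0.12) were lost. The group as a whole had a median pace of 0.10, and its 6 slower members had 0 min ratios between 3.32 and 6.60, while Fancb had 10.2. Calls in this group were lost without replicate 3 for Fancc (0.08, adjusted p = 0.1) and Fancl (0.07, adjusted p = 0.16), and without the 230 min arrays for Fancl (0.06, adjusted p = 0.44) and Fanca (0.14, adjusted p = 0.061). The Fancm call was lost without replicate 2 (0.04, adjusted p = 0.28), replicate 3 (0.10, adjusted p = 0.05), the low pair of arrays (0.06, adjusted p = 0.13), the 230 min arrays (0.14, adjusted p = 0.077) or the 0 min arrays (0.08, adjusted p = 0.069).

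Fancd2 and Fanci form the clamp that is loaded on cross-linked DNA, and their transcripts were the slowest of this group. Fancd2 had ratios of 6.33, 4.95 and 5.27 at 0 min, 5.68, 4.88 and 6.26 at 50 min, 3.69, 3.99 and 5.73 at 110 min, and 4.27, 2.87 and 3.97 at 230 min. It stood at 102 ± 14.9 percent of its 0 min ratio at 50 min (SD, n = 3), as did the faster member Apex1 (102 ± 20.8 percent). At 50 min the median log2 change of expressed probe sets averaged only -0.11 ± 0.186 (SD, n = 3). All 0 min ratios of Fancd2 were above all its 230 min ratios, by a small margin. Its pace was 0.15 ± 0.030 (adjusted p = 0.00017), and that of Fanci was 0.14 ± 0.029 (adjusted p = 0.00021). With the arrays centred on the median change these 2 stayed slower (0.09, adjusted p = 0.0098, and 0.08, adjusted p = 0.016), and the other 4 of the 6 were not called.

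Among the 10 homologous recombination transcripts Brca1 was faster, 5 were slower and 4 were not called. These shares, 10 percent faster and 50 percent slower, were near the 15.1 and 48.8 percent of expressed probe sets. Brca1, a ubiquitin ligase that promotes resection and recombination, had ratios of 13.9, 7.98 and 9.88 at 0 min, 9.1, 7.05 and 9.23 at 50 min, 4.26, 4.06 and 5.54 at 110 min, and 4.85, 2.26 and 4.26 at 230 min. The 0 and 230 min groups did not overlap, and replicate 1 had reached its lowest ratio already at 110 min. Its pace was -0.09 ± 0.026 (adjusted p = 0.0034). Wrn, the Werner syndrome helicase, had 5.58, 4.2 and 4.1 at 0 min, 3.49, 4.68 and 4.16 at 50 min, 2.5, 3.81 and 3.71 at 110 min, and 3.49, 2.46 and 2.97 at 230 min. Its decline was shallow in every time course, and its pace of 0.16 ± 0.033 (adjusted p = 0.00023) was the highest of all members.

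Rad51c, which takes part in strand exchange, was slower (0.12 ± 0.027, adjusted p = 0.00044), as were Rad54l, a motor protein of strand exchange (0.09 ± 0.028, adjusted p = 0.0066; 0.08, adjusted p = 0.054 without replicate 1), and Bard1, the partner of Brca1 (0.11 ± 0.036, adjusted p = 0.012). The Bard1 call was lost without replicate 2 (0.06, adjusted p = 0.25) and without the low pair of arrays, replicate 1 at 110 min and replicate 2 at 230 min (0.06, adjusted p = 0.12). Rad51c had 0.12 (adjusted p = 0.076) without the 230 min arrays. Of expressed probe sets 57.6 percent had a lower slope than Rad54l. With the arrays centred on the median change Rad54l (0.03, adjusted p = 0.34) and Bard1 (0.05, adjusted p = 0.24) were not called. Under that centring Rad51c (0.06, adjusted p = 0.041) and Wrn (0.10, adjusted p = 0.011) stayed slower. Palb2, which links Brca1 to Brca2, was called slower at 0.10 ± 0.036 (adjusted p = 0.013), but its ratio was only 2.08 ± 0.285 at 0 min. It is the only matched member below the expression limit, its pace turned to -0.13 under quantile normalization, and the call was lost without replicate 2 (0.06, adjusted p = 0.17), without the low pair of arrays (0.06, adjusted p = 0.14) and without the 230 min arrays (0.03, adjusted p = 0.73). Blm, Brca2, Rad52 and Xrcc3 were not called, with paces from -0.04 to 0.08.

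The 10 damage sensing and checkpoint transcripts spread from Nbn to Atm. Nbn, the Nijmegen breakage subunit that brings Atm to breaks, had ratios of 16.6, 8.58 and 12.3 at 0 min and 6.46, 2.72 and 4.74 at 230 min. These groups did not overlap, and its pace was -0.09 ± 0.029 (adjusted p = 0.0079), a call lost without replicate 3 (-0.08, adjusted p = 0.099) and without the 230 min arrays (-0.10, adjusted p = 0.17). Atm, the kinase that starts the response to such breaks, had ratios of 6.77, 3.99 and 5.54 at 0 min, 5.52, 3.78 and 5.97 at 50 min, 3.65, 3.19 and 4.51 at 110 min, and 4.59, 2.05 and 3.99 at 230 min. It kept 67.8, 51.4 and 72.0 percent of its 0 min ratio in replicates 1, 2 and 3, and replicate 2 was the lowest at both ends, so that the 0 and 230 min ratios overlapped. Its pace was 0.14 ± 0.027 (adjusted p = 0.00013).

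Chek2, the checkpoint kinase that Atm activates, was slower too at 0.12 ± 0.031 (adjusted p = 0.0014). So was Mre11a, the nuclease of the break-sensing complex, at 0.12 ± 0.034 (adjusted p = 0.0038, and 0.10, adjusted p = 0.06 without replicate 3). With the arrays centred on the median change Chek2 (0.06, adjusted p = 0.066) and Mre11a (0.06, adjusted p = 0.13) were not called, while Atm stayed slower (0.08, adjusted p = 0.012). Topbp1, which activates Atr, had ratios of 25.9, 16.5 and 24.4 at 0 min and 13.7, 6.33 and 14.1 at 230 min. Its groups did not overlap and its pace of 0.04 ± 0.032 was not called. Atr, Chek1, Rad50, Mdc1 and Trp53bp1 were not called either, with paces from -0.07 to 0.04.

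In end joining Lig4, the ligase that seals the ends, was the faster member. Its ratios were 6.21, 5.09 and 5.43 at 0 min, 4.1, 3.63 and 4.05 at 50 min, 2.21, 2.36 and 2.91 at 110 min, and 2.18, 1.7 and 1.89 at 230 min. The 3 time courses ran close together, and 34.4 ± 0.91 percent of the 0 min ratio was left at 230 min (SD, n = 3). Its pace was -0.09 ± 0.033 (adjusted p = 0.014), a call lost without replicate 1 (-0.08, adjusted p = 0.087) and without replicate 3 (-0.07, adjusted p = 0.15). Prkdc, the catalytic subunit of the DNA-dependent protein kinase, had 3.81, 3.61 and 3.28 at 0 min and 2.49, 1.74 and 2.11 at 230 min. It was called slower at 0.10 ± 0.028 (adjusted p = 0.0021), below the median pace of 0.15 of all probe sets with 0 min ratios of 2 to 4. The Prkdc call was lost with 1 subtracted from each ratio (0.04, adjusted p = 0.22) and with centring on the median change (0.04, adjusted p = 0.15). Xrcc5, the larger Ku subunit that caps broken ends, had 20.6, 17.0 and 14.0 at 0 min and 11.54, 6.85 and 12.4 at 230 min. It kept 56.1, 40.2 and 88.5 percent of its ratio in replicates 1, 2 and 3, the widest spread among the members with full values here, and its call as slower (0.08 ± 0.034, adjusted p = 0.031) was lost without replicate 1 (0.09, adjusted p = 0.065) and without replicate 3 (0.04, adjusted p = 0.39). Xrcc6 and Xrcc4 were not called, with paces of -0.01 and 0.02.

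Of the 7 nucleotide excision transcripts 2 were faster, 1 was slower and 4 were not called. Among expressed probe sets 15.1 percent were faster and 48.8 percent slower. Ercc4, a subunit of the nuclease that cuts 5' of the lesion, had ratios of 5.58, 4.0 and 4.75 at 0 min, 3.55, 3.51 and 3.76 at 50 min, 1.66, 2.18 and 2.31 at 110 min, and 1.74, 1.49 and 1.59 at 230 min. From 110 min on its ratios were between 1.49 and 2.31, close to the floor. Its pace was -0.11 ± 0.032 (adjusted p = 0.0052), a call lost without replicate 1 (-0.07, adjusted p = 0.098) and without replicate 3 (-0.09, adjusted p = 0.073). Xpa, a scaffold at the lesion, had -0.10 ± 0.035 (adjusted p = 0.017), which came to -0.08 (adjusted p = 0.1) without replicate 3 and to 0.003 without the 230 min arrays. Ercc1, the partner of Ercc4, had 19.4, 12.8 and 16.2 at 0 min and 12.2, 4.46 and 9.63 at 230 min, and was not called (0.03 ± 0.032). Ercc3, a helicase of the transcription factor TFIIH, had 18.3, 13.4 and 13.1 at 0 min and 9.65, 5.43 and 8.4 at 230 min. It was called slower at 0.07 ± 0.028 (adjusted p = 0.029), a value equal to the median pace of expressed probe sets, and the call was lost without replicate 1 (0.07, adjusted p = 0.092) and without replicate 3 (0.06, adjusted p = 0.2). Ercc2, Ercc5 and Xpc were not called.

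Of the 10 base excision and single-strand break repair transcripts 1 was faster, 1 was slower and 8 were not called. The shares among expressed probe sets were 15.1 percent faster and 48.8 percent slower. Apex1, the endonuclease that cuts at sites without a base, had ratios of 55.7, 28.1 and 44.5 at 0 min, 46.3, 34.9 and 43.5 at 50 min, 21.1, 18.3 and 35.9 at 110 min, and 20.5, 7.67 and 20.9 at 230 min. On average it still stood at 102 ± 20.8 percent of the 0 min ratio at 50 min (SD, n = 3), and declined later. Its pace was -0.10 ± 0.036 (adjusted p = 0.017), but it turned to 0.02 without the 230 min arrays, and the call was lost without replicate 2 (-0.06, adjusted p = 0.16) and without the low pair of arrays (-0.06, adjusted p = 0.15). Parp1, which senses strand breaks and builds poly(ADP-ribose), had 29.7, 16.6 and 22.7 at 0 min, 23.5, 20.2 and 21.6 at 50 min, 12.3, 11.8 and 19.1 at 110 min, and 17.2, 7.97 and 13.2 at 230 min. The 0 and 230 min groups overlapped, and its pace of 0.08 ± 0.028 (adjusted p = 0.015) was close to the median of expressed probe sets. That call was lost without replicate 1 (0.07, adjusted p = 0.09) and without replicate 3 (0.08, adjusted p = 0.077). Mpg, a glycosylase for alkylated bases, had 4.4, 5.27 and 4.58 at 0 min and 2.12, 1.92 and 2.31 at 230 min, an even decline with a pace of 0.02 ± 0.032 that was not called. Ung, Ogg1, Mutyh, Polb, Lig3, Xrcc1 and Parp2 had paces between 0.002 and 0.06.

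Partner subunits and close paralogs were compared within each array, where the scaling of the array cancels. The slope of the log2 ratio of the first gene over the second was tested in 20 pairs by an exact two-sided permutation of the time labels within each time course, for which the smallest p that can be reached is 1.2e-06, with Benjamini-Hochberg adjustment over the 20 pairs. Of these, 10 pairs differed after adjustment and 11 at an unadjusted p below 0.05. The share that differs among pairs of unrelated probe sets was not computed, so these counts are not a result particular to partners or paralogs. For 9 of the 10 called pairs, the difference had the same sign in all 3 time courses, which are the data that gave the calls.

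Msh3 minus Msh6 was the widest difference, at 0.34 ± 0.099 log2 per hr (SD, n = 3 time courses, exact permutation, adjusted p = 0.00088). The time courses gave 0.26, 0.30 and 0.45, so the transcripts of these mismatch recognition proteins moved apart in each. Wrn minus Blm, both RecQ helicases, was 0.19 ± 0.024 (adjusted p = 0.001, exact permutation), and Atm minus Atr, the apical kinases, was 0.13 ± 0.018 (adjusted p = 0.0016, exact permutation). Both differences were narrow across the time courses. Nbn minus Rad50, subunits of a single complex, was -0.13 ± 0.021 (adjusted p = 0.0011, exact permutation), and Brca1 minus Bard1, an obligate heterodimer, was -0.20 ± 0.10 (adjusted p = 0.01, exact permutation). The Brca1 and Bard1 call was lost without replicate 1 (-0.20, adjusted p = 0.058) and without replicate 2 (-0.15, adjusted p = 0.13; exact permutations).

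Parp2 minus Parp1 differed by -0.07 ± 0.027, the smallest of the called differences, and had the lowest p (adjusted p = 0.00029, exact permutation). Chek1 minus Chek2 was -0.11 ± 0.079 and Rev1 minus Polk -0.09 ± 0.041 (adjusted p = 0.0021 and 0.023, exact permutation), and without replicate 1 both calls were lost (-0.07 each, adjusted p = 0.11 and 0.21, exact permutation). With 1 subtracted from each ratio both were lost as well (-0.08 and -0.09, adjusted p = 0.072 each, exact permutation). Rev1 minus Polk was also lost without the 0 min arrays (-0.09, adjusted p = 0.061) and without the 230 min arrays (-0.18, adjusted p = 0.061, exact permutations). Ercc4 minus Ercc1 was -0.14 ± 0.15 (adjusted p = 0.031, exact permutation), with 0.03 in replicate 2 against -0.25 and -0.20 in replicates 1 and 3, and its call was lost without replicate 1 (-0.09, adjusted p = 0.25) and without replicate 3 (-0.11, adjusted p = 0.27, exact permutations). The Ercc4 and Ercc1 call was lost without the 0 min arrays too (-0.12, adjusted p = 0.13, exact permutation). Brca2 minus Palb2 was -0.12 ± 0.023 (adjusted p = 0.03, exact permutation), and it came to 0.003 after subtraction of the floor from each ratio, with Palb2 at a 0 min ratio of 2.08. The Brca2 and Palb2 call was also lost whichever of the 3 replicates was left out (-0.13 to -0.11, adjusted p = 0.061 to 0.15, exact permutation) and without the low pair of arrays (-0.12, adjusted p = 0.071, exact permutation).

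Without the 230 min arrays 4 pairs differed. The calls lost then included Msh3 minus Msh6 (0.33), Atm minus Atr (0.16) and Nbn minus Rad50 (-0.17), which kept their direction with adjusted p from 0.061 to 0.083 (exact permutation).

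The other 10 pairs did not pass. Fancd2 minus Fanci, which are ubiquitinated together, differed by 0.01 ± 0.038 (adjusted p = 0.68, exact permutation), with -0.02, 0.05 and -0.004 in the 3 time courses. Xrcc5 minus Xrcc6, the Ku subunits, was 0.10 ± 0.060 (adjusted p = 0.053, exact permutation) and positive in all 3. Xpc minus Xpa was 0.09 ± 0.0055 (adjusted p = 0.12, exact permutation), and Mre11a minus Rad50 was 0.08 ± 0.041 (adjusted p = 0.16, exact permutation). Lig4 minus Xrcc4 was -0.11 ± 0.14 (adjusted p = 0.23, exact permutation), with replicate 2 of the opposite sign.

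**Figure D3:**
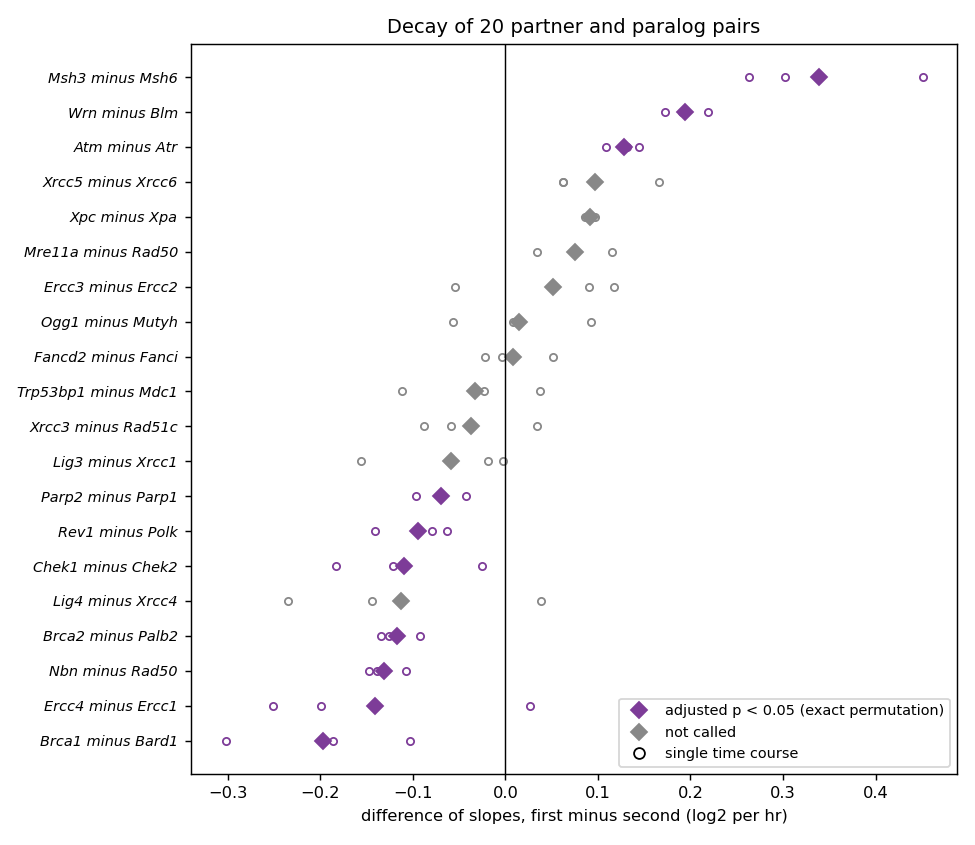
Difference of slope (log2 per hr, the gene named first minus the gene named second) for 20 pairs of partners or paralogs. Diamonds are the mean of 3 time courses and circles the single time courses, purple marks the 10 pairs past an adjusted p of 0.05 by exact permutation, and Msh3 minus Msh6 (0.34) and Brca1 minus Bard1 (-0.20) lie at the ends.

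Half-lives were fitted as first-order decay in each time course on the deposited ratios. The median over the 55 members was 3.48 hr, beside 4.15 hr for expressed probe sets, and it ran from 1.47 ± 0.375 hr for Msh6 to 6.35 ± 2.34 hr for Fancd2 (SD, n = 3 time courses). By role the medians over all fits, reliable or not by the rule below, were 2.07 hr for mismatch repair and 2.38 hr for damage tolerance. They were 2.87 hr for nucleotide excision and 3.39 hr for base excision and single-strand breaks. They were 3.62 hr for damage sensing, 3.98 hr for homologous recombination, 4.18 hr for end joining and 5.17 hr for the Fanconi anaemia genes. The half-lives depend on the scaling, as the decline itself does: with each array divided by its median the median of the members was 10.5 hr, and with the 75th percentile 21.3 hr, with 25 members that no longer decayed in any time course.

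A half-life was called reliable in a time course when the decay constant had p below 0.05 and the 95 percent interval was narrower than 2 times the half-life, and reliable over the series when this held in at least 2 of 3 time courses. By this rule 8 members were reliable, beside 11.2 percent of expressed and 5.87 percent of all probe sets. Mismatch repair and damage sensing held 2 each, and damage tolerance and homologous recombination 0. Each of the other roles held 1, so the role medians above rest mostly on fits that were not reliable. Over reliable half-lives alone the median was 2.22 hr for members and 2.20 hr for expressed probe sets. Msh6 (1.04, 1.61 and 1.74 hr in replicates 1, 2 and 3) and Mpg (3.22, 2.69 and 3.9 hr) were reliable in all 3, beside 1.67 percent of expressed probe sets. Those reliable in 2 of 3 were Lig4 (2.02 ± 0.304 hr), Ercc4 (2.07 ± 0.587 hr), Pms2 (2.07 ± 0.453 hr), Trp53bp1 (2.37 ± 0.330 hr), Mdc1 (2.41 ± 0.520 hr) and Fancm (4.44 ± 1.49 hr). Rev1 (1.82 ± 0.473 hr), Fancb (1.92 ± 0.50 hr) and Brca1 (2.26 ± 0.667 hr) had short half-lives that were reliable in only 1 time course.

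The time courses did not yield equally. Replicate 1 gave 2 reliable members, replicate 2 gave 20 and replicate 3 gave 19, and the medians were 2.75, 3.20 and 4.73 hr. Among expressed probe sets 4.39, 24.4 and 22.4 percent were reliable in these time courses. Without replicate 2, and without replicate 3, only Msh6 and Mpg were reliable over the series. Each fit had 3 residual degrees of freedom. Xrcc5 had 3.45, 3.36 and 10.7 hr in replicates 1, 2 and 3, the largest SD of any member (4.19 hr). Wrn (4.91, 6.39 and 6.53 hr) was reliable in none of the 3.

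**Figure D4:**
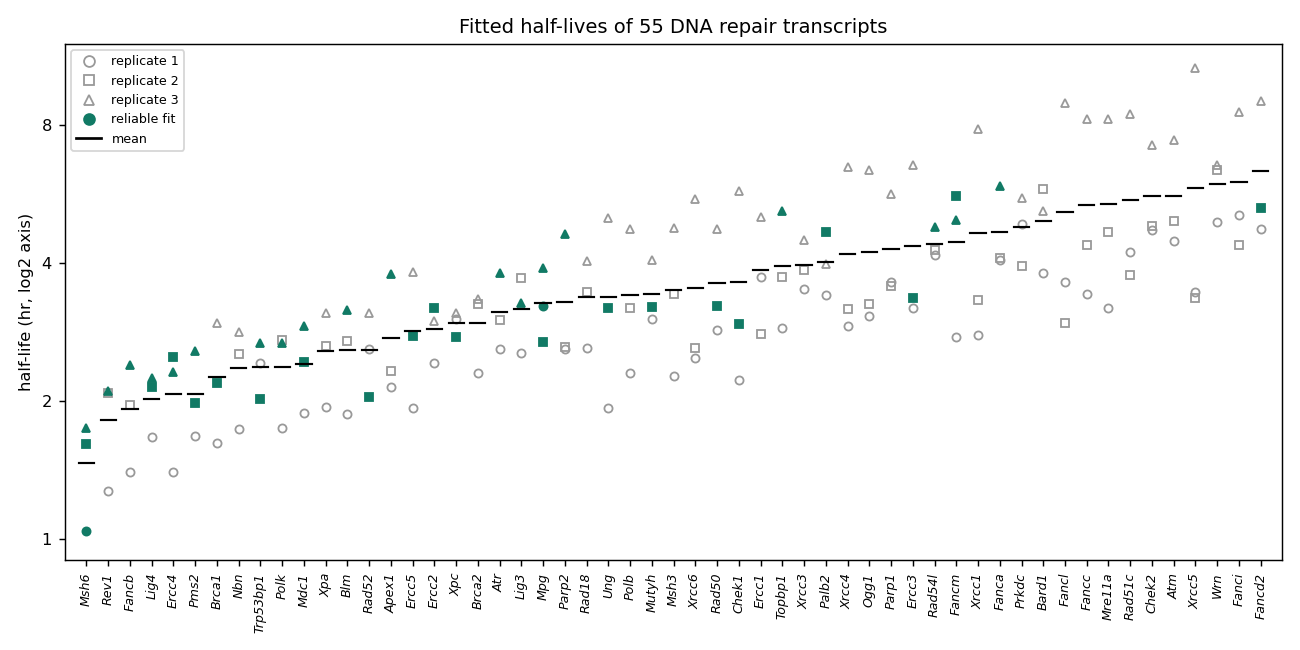
Fitted half-life (hr, log2 axis) of the 55 repair transcripts in each of the 3 time courses, ordered by their mean (bar). Filled symbols are reliable fits, and Msh6 (1.47 hr) and Fancd2 (6.35 hr) are the ends of the order, with replicate 3 above replicate 1 for most members.

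A wider list of repair genes that are not members was set beside them. Of its 80 genes 70 were matched and 64 expressed, and 69 of the 70 fell on the deposited scale, beside 96.3 percent of expressed probe sets. In pace 16 of the 70 were faster and 26 slower, beside 15.1 and 48.8 percent of expressed probe sets. The median pace of the list was 0.02, equal to that of the members to the second decimal. Rad1, a subunit of the checkpoint clamp, had -0.29 ± 0.036, Exo1, the exonuclease of mismatch repair and resection, -0.29 ± 0.037, and Polh, the polymerase that bypasses ultraviolet damage, -0.25 ± 0.028 (SE, limma). Ddb1, a subunit of a ubiquitin ligase complex that recognises such damage, had 0.19 ± 0.029 at a 0 min ratio of 110, far above the floor. Reliable half-lives were found for 17 of the 70, beside 11.2 percent of expressed probe sets.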

How the data were processed

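Total RNA of 15 samples was hybridised to 1 array each. The authors deposited linear ratios: each value was divided by the 5th percentile of its array. How probe sets were summarised and background was corrected is not given in the sources used here. The members and gene lists were chosen with earlier results of these data known.

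From the ratios, log2 values of all 25175 probe sets were fitted in limma 3.58.1 (R 4.3.3) on time in hours with the time course as a block, and p-values were Benjamini-Hochberg adjusted over all of them (threshold 0.05). Pace used the same fit after subtracting each array's median log2 ratio over the 12544 expressed probe sets. The block was kept because the study fitted each time course by itself. Same-numbered arrays deviated together in 29 of 30 pairs of time groups (correlation above 0.1, median 0.362), and other arrays in 14 of 60. Half-lives were fitted per time course with SciPy 1.17.1, with profile intervals. No array was left out of the main fits, no 2 arrays were identical, and the scripts were tested on simulated data. Symbols came from the platform annotation, in which 21044 probe sets have 1 symbol, 1492 several and 2639 none.

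Full values were given for the steepest and shallowest member and that with the highest 0 min ratio in each role group, and for members reliable in 3 time courses, and other values by range or call. Other calls, values and settings named in the text were chosen after their values were seen. Alternatives were other scalings, subtraction of 1, log2(ratio + 1), the expressed probe sets only, no block, an intensity trend, other decay curves, all probe sets of a gene, and fits without single replicates, time points or arrays.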

Additional observations from a re-analysis of the deposited data

How the results depend on the processing

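The pace of the members depended most on the centring of the arrays. Centred on the median of all probe sets, 34 members were faster and 0 slower, beside 42.7 and 2.83 percent of expressed probe sets, and the median pace was -0.118. There Bard1 came to -0.031, Chek2 -0.014, Ercc3 -0.067, Fanca -0.026, Fancc -0.036, Fancl -0.042, Fancm -0.047, Mre11a -0.021, Palb2 -0.034, Parp1 -0.059, Prkdc -0.034, Rad51c -0.014, Rad54l -0.048 and Xrcc5 -0.055. Centred on the 75th percentile of expressed probe sets, 8 were slower, beside 29.7 percent of those probe sets, and the median of the members was -0.019. On the median change (chosen after seeing the data) 5 were slower and the median was -0.04, and after quantile normalization the median was -0.004 and Palb2 had -0.128. With 1 subtracted Palb2 had -0.159 and Brca2 minus Palb2 0.003. With log2(ratio + 1) 7 were faster, beside 13.5 percent of expressed probe sets. Without the 230 min arrays 7 were faster, the median was 0.047, Apex1 had 0.017, Xpa 0.003 and Brca2 minus Palb2 0.003, and 4 pairs differed. Leaving out a replicate gave 6 to 10 faster and 11 to 15 slower, beside 11.6 to 13.6 and 35.3 to 44.0 percent of expressed probe sets. It gave medians of 0.02 to 0.038, and 5 to 8 pairs. The cause of these changes was not tested.

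The median slope on the deposited scale was -0.118 with arrays divided by their median (34 fell), 0.018 with the 75th percentile (11 fell, 18 rose), -0.385 with 1 subtracted, -0.238 with log2(ratio + 1) and -0.399 without the 230 min arrays. Without the replicate block 55 members fell, 9 were faster and 17 slower, beside 94.9, 13.9 and 44.4 percent of expressed probe sets. Slopes were unchanged, and of the 29 pace calls 26 stayed past the threshold, while Apex1 (-0.097, adjusted p = 0.083), Polk (-0.069, adjusted p = 0.11) and Parp1 (0.078, adjusted p = 0.053) did not.

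The number of reliable half-lives was 0 and 1 with arrays divided by their median and 75th percentile, 0 with a constant floor in the curve, 21 with a straight line on log2 values, 5 without replicate 1 at 110 min and replicate 2 at 230 min, 2 when the 230 min group and 5 when the 0 min group was left out, and 2 to 8 with a replicate left out. The median half-life was 10.5 and 21.3 hr under the 2 divisions. Ratios near 1 limit what any of these can show for members such as Palb2 and Ercc4.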
